A study of Mus musculus with 15 samples.

Results

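The endoplasmic reticulum folding and degradation genes described here are 37 genes in 4 roles: 14 chaperones and their helpers, 9 disulfide enzymes, 9 genes of degradation and 5 sensors or transcription factors. Members were taken by gene symbol or synonym from the platform annotation, 1 probe set per gene, the one with the highest mean. All 37 of the listed genes were found among 19938 named genes. Of these, 35 passed the filter on low values and were tested among 10109 genes; the disulfide isomerase gene Pdia5 and the derlin gene Derl3 did not pass.

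The samples are RNA of fourth-ventricle choroid plexus from mice labelled as male, on the C57BL/6J background and aged 3 weeks, 1 animal per array, on single-colour Affymetrix arrays. The 3 groups are Add1 null (knockout), Add1 heterozygous and Add1 wild-type, with 5 animals each. Add1 encodes alpha-adducin, a protein that caps actin filaments in the membrane skeleton, and animals were sampled before hydrocephalus develops. The labels do not say which part of Add1 is deleted.

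Proteins that a cell secretes or places in its membranes are folded in the endoplasmic reticulum by chaperones and disulfide isomerases. Proteins that fail to fold are drawn back into the cytosol and degraded. When folding demand exceeds capacity, the membrane sensors Ire1 (Ern1), Perk (Eif2ak3) and Atf6 start the unfolded protein response, which raises the genes of folding and degradation. The choroid plexus epithelium secretes cerebrospinal fluid and carrier proteins such as transthyretin and so carries a large secretory load.

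Add1 had log2 levels of 7.66, 7.74, 7.76, 7.46 and 7.41 in null arrays 1 to 5, 7.68, 7.68, 7.74, 7.92 and 7.79 in heterozygous arrays, and 7.96, 8.04, 7.78, 7.81 and 8.0 in wild-type arrays. Every null array lay below every wild-type array (log2 difference -0.31, SE 0.0791, limma adjusted p = 0.0241). Transthyretin (Ttr), the defining secreted protein of the tissue, lay between 12.85 and 13.19 on all 15 arrays. Null arrays 1 and 5 carried Xist at 9.09 and 9.69, against at most 3.88 on the other 13 arrays, and had low Y-linked signal, against their label as male. Heterozygous array 1 stood apart in neural transcripts, with Gabra6, a cerebellar receptor subunit, at 7.80. Counts are therefore also given without null arrays 1 and 5.

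Promoters are shown first because several members share a sequence. The members were listed as folding and degradation genes, which the unfolded protein response raises. The share of members with a stress element is therefore not independent of their choice. The ER stress response element (ERSE) is a site at which, among other factors, the cleaved form of Atf6 acts together with the factor NF-Y. Its letters, CCAAT followed by 9 bases of any kind and then CCACG, were searched on both strands in the window from 250 bases before to 50 bases after each annotated start, in RefSeq sequence of GRCm38.p6. Promoters were given for 32 of the 37 members; Atf6, Derl1, Hyou1, Manf and Sil1 had no entry. The ERSE was present in 10 of these 32, or 31.2%, against 37 of 27025 genes with a promoter, or 0.137%, and 13 of 8238 tested genes, or 0.158%. The shares of all genes and of tested genes include the members, which make up 10 of the 37 and 9 of the 13. The 10 members are Calr, Canx, Creld2, Derl3, Dnajc3, Ero1b, Hsp90b1, Hspa5, Pdia6 and Syvn1. A related form, ERSE-II, with ATTGG, 1 base of any kind and CCACG, was present in Herpud1 and, just after the start, in Dnajb11, and in 0.0444% of all genes. The letters TGACGTGG, of an element that Xbp1 binds and not the only one, were present only in Txndc5 among the members, and in 0.714% of all genes. No motif shared letters with another in the stretches shown, in which the fixed letters of the ERSE or ERSE-II are in capitals, written 5′ to 3′ on the strand of the gene:
Hspa5 (chr2:34772010-34772058, plus strand): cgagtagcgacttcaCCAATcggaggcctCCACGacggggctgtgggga
Calr (chr8:84847060-84847108, minus strand): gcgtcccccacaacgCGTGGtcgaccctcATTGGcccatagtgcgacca
Pdia6 (chr12:17266476-17266524, plus strand): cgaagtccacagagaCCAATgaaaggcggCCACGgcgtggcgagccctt
Creld2 (chr15:88819505-88819553, plus strand): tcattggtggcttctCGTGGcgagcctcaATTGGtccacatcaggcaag
Herpud1 (chr8:94386362-94386402, plus strand): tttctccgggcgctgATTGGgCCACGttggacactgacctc
Canx (chr11:50325785-50325833, minus strand): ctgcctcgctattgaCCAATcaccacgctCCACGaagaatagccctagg
The first 5 belong to members that were called lower in null animals, and Canx to one that was not. In Calr and Creld2 the element runs on the opposite strand, so that its letters read CGTGG and ATTGG. A match describes these letters only and is not evidence of binding.

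The loss of Add1 was addressed by null against wild type. In null choroid plexus 16 of the 35 tested members (45.7%) fell, 19 did not pass and 0 rose in limma at an adjusted p under 0.05 over all tested genes. The 16 are 13 folding genes and Herpud1, Sel1l and Xbp1; with an index of clock genes as a covariate, described further on, 0 of the 16 remained called. Of all tested genes, 7.72% were called, 3.54% lower and 4.17% higher. At an unadjusted p under 0.05, 23 members were lower and 0 higher, where 10.8% of all tested genes were lower. The members' median log2 difference was -0.27, against 0.01 for all tested genes, and 31 of the 35 had a difference below 0, against 46% of all tested genes. Groups did not overlap, with all null arrays lower, for 13 members, where 2.49% of all tested genes did so. Chaperones carried most of the calls, with 10 of 14 lower, followed by 3 of 8 disulfide enzymes, 2 of 8 degradation genes and 1 of 5 sensors. In whole tissue, fewer cells of a type and less RNA per cell cannot be told apart.

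**Figure D1:**
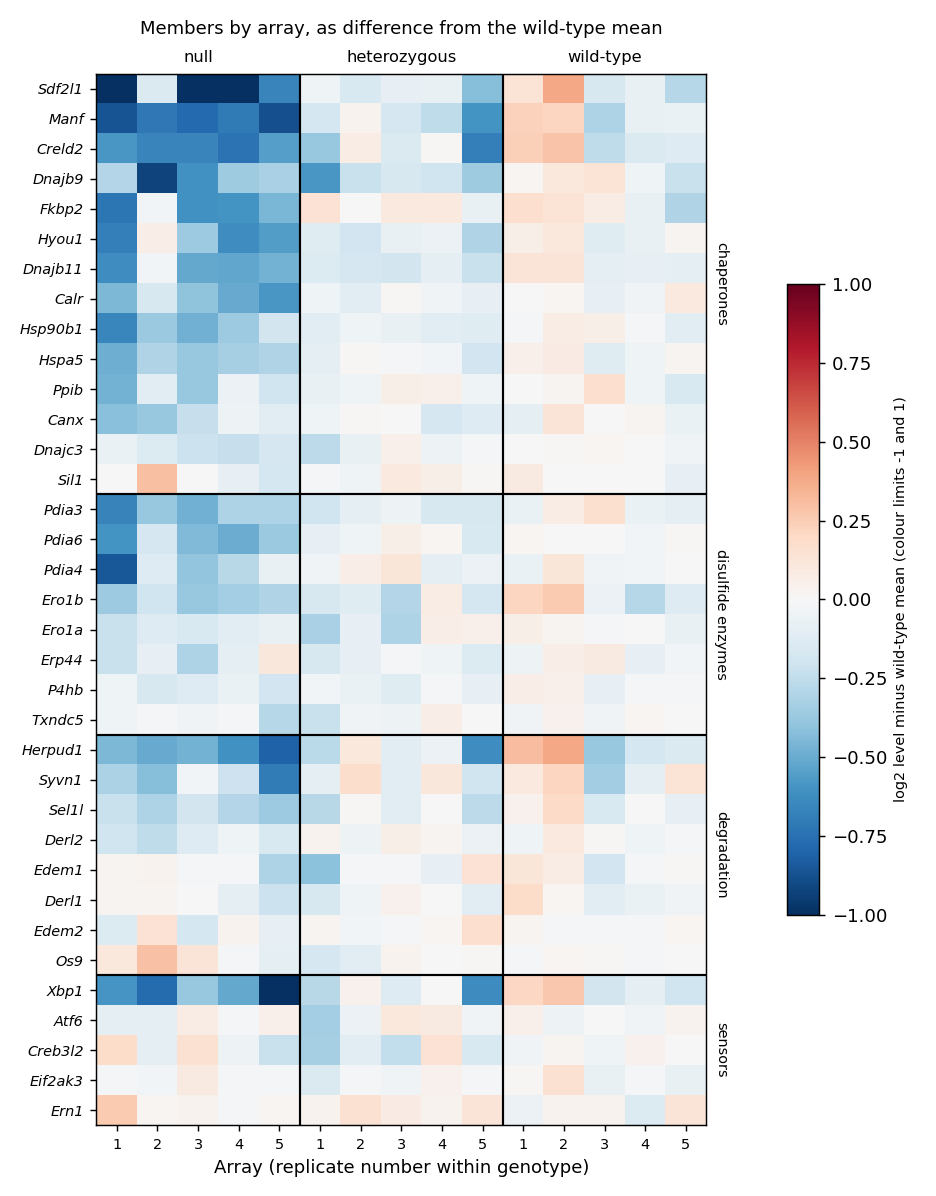
Log2 level of each of the 35 tested members (rows, by role) on each of the 15 arrays (columns: null, heterozygous, wild-type), minus the gene's wild-type mean; blue is lower, red higher, and the colours end at -1 and 1. The chaperone rows are blue in most null arrays, while the rows of Atf6, Creb3l2, Eif2ak3 and Ern1 show no such block and are coloured in single arrays, such as heterozygous array 1 for Atf6 (7.18) and Creb3l2 (6.39) and null array 1 for Ern1 (6.07).

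Without null arrays 1 and 5, 9 members were called lower and 0 higher, where 1.4% of all tested genes were called lower. The 9 are Hspa5, Hsp90b1, Calr, Dnajb9, Sdf2l1, Manf, Creld2, Pdia3 and Pdia6, each of them also called over all arrays. The members' median was then -0.22, and 23 of 35 were lower at an unadjusted p under 0.05, where 7.48% of all tested genes were. The other 7 calls (Hyou1, Dnajb11, Fkbp2, Ero1b, Herpud1, Sel1l and Xbp1) had log2 differences between -0.55 and -0.26 without these arrays and adjusted p-values of 0.05001 (Xbp1) to 0.1545 (Hyou1).

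Among the chaperones, Hspa5, the Hsp70 of the endoplasmic reticulum (BiP) that also holds the sensors inactive, read 11.33, 11.52, 11.44, 11.49 and 11.52 in null arrays 1 to 5. It read 11.72, 11.83, 11.80, 11.79 and 11.63 in heterozygous arrays and 11.87, 11.90, 11.70, 11.78 and 11.85 in wild-type arrays. All null arrays were below all others, and the null signal was 77.9% of wild-type, a log2 difference of -0.36 with an SE of 0.0589 (limma adjusted p = 0.00216). The exact permutation test gave p = 0.00794, which is the least that 5 against 5 arrays allow. Hsp90b1, the Hsp90 of the compartment (Grp94), read 11.10, 11.38, 11.27, 11.39 and 11.57 in null arrays, 11.65, 11.71, 11.68, 11.64 and 11.63 in heterozygous arrays, and 11.74, 11.83, 11.81, 11.73 and 11.65 in wild-type arrays. Here too the null arrays did not overlap either other genotype, and null array 1 was the lowest (log2 difference -0.41, SE 0.0708, limma adjusted p = 0.00279).

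Calr (calreticulin), a soluble lectin chaperone that binds glycoproteins and calcium, read 10.45, 10.74, 10.50, 10.40 and 10.32 in null arrays, 10.86, 10.80, 10.91, 10.87 and 10.82 in heterozygous arrays, and 10.90, 10.92, 10.82, 10.87 and 11 in wild-type arrays. Null array 2 lay nearest the other genotypes without reaching them, and the null signal was 74.7% of wild-type (log2 difference -0.42, SE 0.0678, limma adjusted p = 0.00194). Manf, a small BiP-binding protein that is also secreted, had the smallest p of the members. It read 7.08, 7.23, 7.17, 7.24 and 7.07 in null arrays, 7.77, 7.98, 7.78, 7.69 and 7.35 in heterozygous arrays, and 8.18, 8.16, 7.64, 7.87 and 7.88 in wild-type arrays. The null arrays were both low and close together, the heterozygous array nearest to them was array 5, and the null signal was 57.9% of wild-type (log2 difference -0.79, SE 0.109, limma adjusted p = 0.000612).

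**Figure D2:**
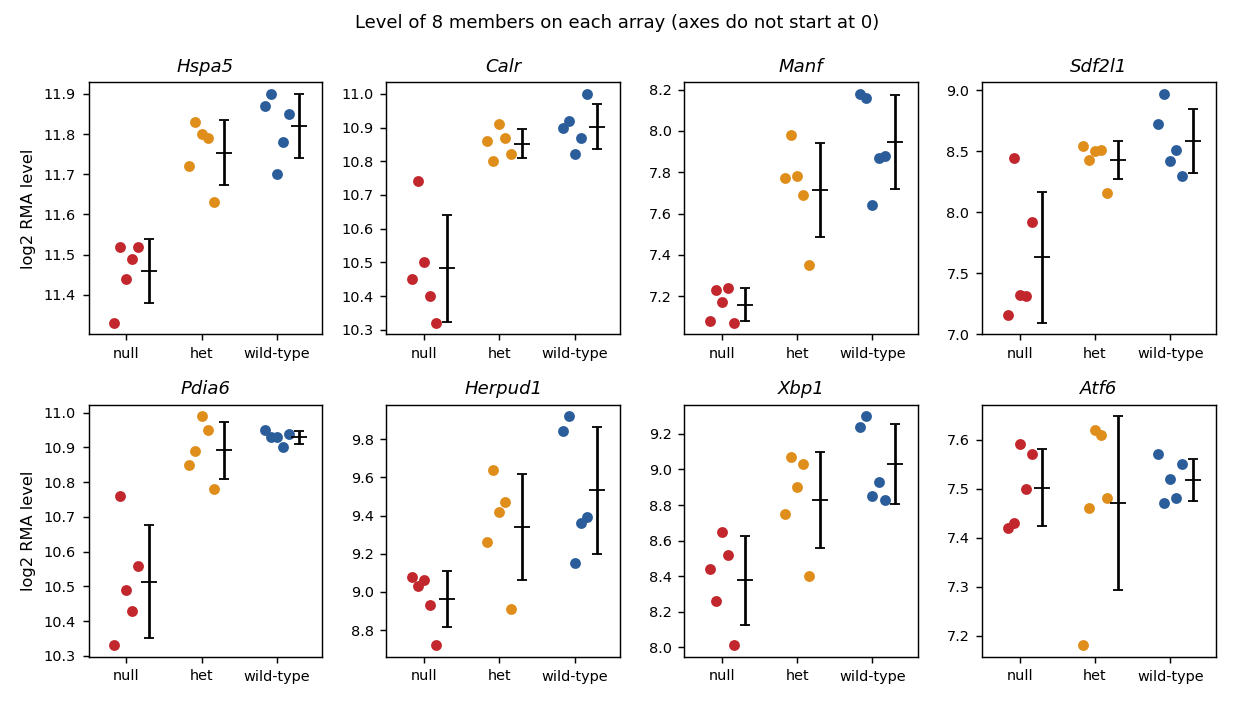
Log2 RMA level of 8 members on each array (points), with the mean and SD of each genotype (bars, n = 5), null left, heterozygous middle and wild-type right; axes do not start at 0. Hspa5, Calr, Manf, Pdia6, Herpud1 and Xbp1 show all 5 null points below all wild-type points, Sdf2l1 has null array 2 at 8.44 among the wild-type points, and Atf6 overlaps throughout.

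Sdf2l1, a partner of the J-domain protein encoded by Dnajb11, showed the largest difference of the members in the fit without covariates. It averaged 7.63 ± 0.538 in null and 8.58 ± 0.265 in wild-type arrays (SD, n = 5 each), so that null animals had 51.6% of the wild-type signal (log2 difference -0.95, limma adjusted p = 0.0069). Null arrays ran from 7.16 to 8.44 and overlapped wild-type (8.30 to 8.97) through null array 2. Creld2, a stress-inducible protein with EGF-like repeats, lay between 7.33 and 7.52 in null arrays and between 7.82 and 8.36 in wild-type arrays, with no overlap (log2 difference -0.64, limma adjusted p = 0.0069).

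Of the helpers of BiP and the prolyl isomerases, 4 more genes fell. The J-domain genes Dnajb9 (log2 difference -0.50, adjusted p = 0.0134) and Dnajb11 (-0.43, adjusted p = 0.00839) and the nucleotide exchange factor Hyou1 (-0.43, adjusted p = 0.0238) fell in limma. The prolyl isomerase gene Fkbp2 fell as well (-0.48, adjusted p = 0.0156). Null array 2 was the highest null array for 8 of the 16 called members, for Hspa5 in a tie with null array 5 (11.52). It read 9.29 for Dnajb11, 8.84 for Hyou1 and 10.13 for Fkbp2, each inside the wild-type range. For Dnajb9 it read 7.32 and was the lowest of all 15 arrays. Without wild-type array 1 the calls of Hyou1 and Fkbp2 were lost, and that of Hyou1 also without null array 1 or 4 or wild-type array 2.

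The remaining chaperones did not pass. Canx (calnexin), the membrane-bound lectin chaperone, averaged 10.71 ± 0.162 in null and 10.95 ± 0.0877 in wild-type arrays (limma adjusted p = 0.0563). The prolyl isomerase gene Ppib differed by -0.24 (adjusted p = 0.0657). Dnajc3, a J-domain protein known to restrain Perk, differed by -0.16 (adjusted p = 0.0927), although its null arrays (10.56 to 10.72) did not overlap wild-type arrays (10.75 to 10.81). Sil1, a further nucleotide exchange factor for BiP, differed by 0.01 (95% confidence interval -0.14 to 0.16, adjusted p = 0.958).

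Among the 8 tested disulfide enzymes, 3 fell and all had differences below 0. Pdia6, an isomerase that also acts on the sensor Ire1, read 10.33, 10.76, 10.49, 10.43 and 10.56 in null arrays, 10.85, 10.89, 10.99, 10.95 and 10.78 in heterozygous arrays, and 10.95, 10.93, 10.93, 10.90 and 10.94 in wild-type arrays. Wild-type arrays lay within a range from 10.90 to 10.95, above every null array (log2 difference -0.42, SE 0.0690, limma adjusted p = 0.00231). Pdia3, which works with calnexin and calreticulin on glycoproteins, read 9.89, 10.18, 10.08, 10.25 and 10.25 in null arrays, 10.36, 10.47, 10.51, 10.40 and 10.40 in heterozygous arrays, and 10.49, 10.63, 10.72, 10.49 and 10.46 in wild-type arrays. Its null arrays lay below both other genotypes (log2 difference -0.43, SE 0.0728, limma adjusted p = 0.0026).

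Ero1b, an oxidase that renews the disulfides of the isomerases, read 6.41, 6.57, 6.39, 6.43 and 6.47 in null arrays, 6.61, 6.65, 6.48, 6.85 and 6.60 in heterozygous arrays, and 6.99, 7.03, 6.71, 6.49 and 6.64 in wild-type arrays. Null array 2 lay above wild-type array 4, so the groups overlapped (log2 difference -0.32, SE 0.0936, limma adjusted p = 0.0463). Leaving out single arrays ended the call in 11 of 15 cases: all except null array 2, heterozygous array 4 and wild-type arrays 4 and 5. Pdia4, a multi-domain isomerase, read 9.34, 10.06, 9.79, 9.91 and 10.11 in null arrays, 10.15, 10.25, 10.31, 10.10 and 10.13 in heterozygous arrays, and 10.12, 10.31, 10.15, 10.16 and 10.19 in wild-type arrays. Its null arrays did not overlap wild-type, but null array 1 stood apart below the others and the fit did not pass (log2 difference -0.34, SE 0.108, limma adjusted p = 0.0592).

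P4hb, the classical protein disulfide isomerase, averaged 9.99 ± 0.0622 in null and 10.11 ± 0.0604 in wild-type arrays (SD, n = 5 each; limma adjusted p = 0.161). The other oxidase gene Ero1a (-0.14, adjusted p = 0.276), the retention factor gene Erp44 (-0.12, adjusted p = 0.312) and the isomerase gene Txndc5 (-0.08, adjusted p = 0.494) did not pass either. Pdia5 lay between 4.47 and 4.79 on all arrays, below the filter value of 5.31, and was not tested.

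**Figure D3:**
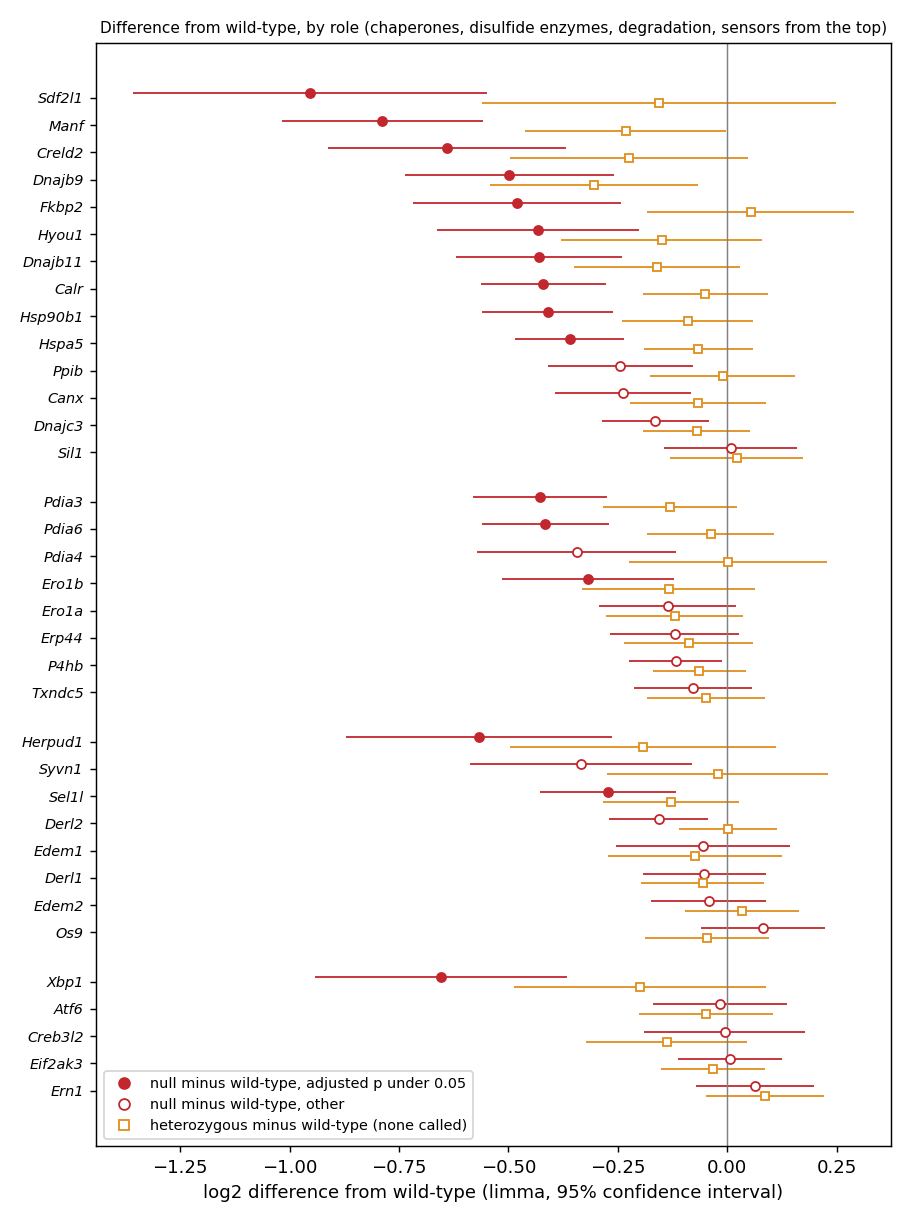
Log2 difference from wild-type with its 95% confidence interval from limma, for each tested member, by role; red circles are null minus wild-type, filled where the adjusted p was under 0.05, and orange squares are heterozygous minus wild-type. Filled circles are 10 of 14 chaperones, 3 of 8 disulfide enzymes, 2 of 8 degradation genes and Xbp1 among the 5 sensors, all left of 0.

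Degradation runs through a ubiquitin ligase complex in the membrane, with Syvn1 (Hrd1) as ligase, Sel1l as its adaptor, Herpud1 as a scaffold and derlins as part of the channel. Herpud1 read 9.08, 9.03, 9.06, 8.93 and 8.72 in null arrays, 9.26, 9.64, 9.42, 9.47 and 8.91 in heterozygous arrays, and 9.84, 9.92, 9.15, 9.36 and 9.39 in wild-type arrays. All null arrays were below wild-type arrays, and heterozygous array 5 lay among them (log2 difference -0.57, SE 0.144, limma adjusted p = 0.0245). Without wild-type array 1 or 2, the highest arrays, the call was lost. Sel1l read 8.65, 8.56, 8.69, 8.58 and 8.51 in null arrays, 8.59, 8.88, 8.76, 8.87 and 8.61 in heterozygous arrays, and 8.91, 9.06, 8.72, 8.87 and 8.79 in wild-type arrays. The highest null array, array 3, lay just below the lowest wild-type array (log2 difference -0.27, SE 0.0739, limma adjusted p = 0.0323). Leaving out null array 1, 4 or 5 or wild-type array 1, 2 or 4 ended the call.

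Syvn1 itself read 6.67, 6.56, 6.96, 6.78 and 6.29 in null arrays, 6.89, 7.16, 6.88, 7.10 and 6.79 in heterozygous arrays, and 7.08, 7.2, 6.64, 6.89 and 7.12 in wild-type arrays. The ranges overlapped, mainly through null array 3 and wild-type array 3 (log2 difference -0.33, SE 0.120, limma adjusted p = 0.0974). Derl2 read 7.46, 7.41, 7.53, 7.62 and 7.51 in null arrays, 7.70, 7.61, 7.72, 7.69 and 7.60 in heterozygous arrays, and 7.62, 7.76, 7.67, 7.62 and 7.64 in wild-type arrays, where the lowest wild-type arrays equalled the highest null array (log2 difference -0.16, limma adjusted p = 0.083). Genes that pick out glycoproteins for degradation had differences near 0: Edem1 differed by -0.06, Edem2 by -0.04 and the lectin gene Os9 by 0.08, with adjusted p-values from 0.49 to 0.763. Derl1 differed by -0.05 (adjusted p = 0.687). Derl3, below the filter, averaged 4.65 ± 0.266 in null and 5.06 ± 0.0581 in wild-type arrays, where differences on arrays are compressed.

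Of the sensors and transcription factors, Xbp1 alone passed. Xbp1, the factor whose messenger RNA is spliced by Ire1, read 8.44, 8.26, 8.65, 8.52 and 8.01 in null arrays, 8.75, 9.07, 8.90, 9.03 and 8.40 in heterozygous arrays, and 9.24, 9.30, 8.85, 8.93 and 8.83 in wild-type arrays. Null arrays lay below all wild-type arrays, with 63.6% of the signal measured in wild type (log2 difference -0.65, SE 0.137, limma adjusted p = 0.00839). The deposited value does not separate spliced from unspliced Xbp1. Among the sensors themselves, Atf6 read 7.42, 7.43, 7.59, 7.50 and 7.57 in null arrays, 7.18, 7.46, 7.62, 7.61 and 7.48 in heterozygous arrays, and 7.57, 7.47, 7.52, 7.48 and 7.55 in wild-type arrays, with the lowest value in heterozygous array 1. The difference of null from wild type was -0.02 (95% confidence interval -0.17 to 0.14, limma adjusted p = 0.917).

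Ern1 read 6.07, 5.83, 5.84, 5.79 and 5.83 in null arrays, 5.84, 5.96, 5.89, 5.84 and 5.94 in heterozygous arrays, and 5.75, 5.84, 5.84, 5.67 and 5.94 in wild-type arrays, with null array 1 the highest of all. Its difference was 0.06 (95% confidence interval -0.07 to 0.20, limma adjusted p = 0.586). Eif2ak3 read 6.87, 6.86, 6.98, 6.88 and 6.88 in null arrays, 6.74, 6.88, 6.85, 6.93 and 6.88 in heterozygous arrays, and 6.90, 7.04, 6.81, 6.88 and 6.81 in wild-type arrays. The groups overlapped fully, with a difference of 0.01 (95% confidence interval -0.11 to 0.13, limma adjusted p = 0.96). Creb3l2, a membrane-bound factor of the Atf6 family that drives secretory genes, differed by -0.01 (95% confidence interval -0.19 to 0.18). These intervals are of messenger RNA and say nothing of sensor activity.

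Members with an ERSE or ERSE-II and members without were called in different numbers, a difference that was not tested. Among all tested genes, 3.54% were called lower. Of 11 tested members with either element, 8 were called lower in null and the median log2 difference was -0.41. Of 19 tested members whose promoter held neither, 6 were called lower and the median was -0.14; their differences ran from -0.95 (Sdf2l1) to 0.08 (Os9). Outside the list, 4 tested genes held the ERSE: Alg12, a mannosyltransferase gene of the endoplasmic reticulum (-0.25, adjusted p = 0.1655), Pan2 (0.12), Acacb (0.03) and Spats2l (0.01). These 4 were named after their values were seen, and limma called 0 of them.

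Other genes of the same compartment were described from lists beside the members. In limma 3.54% of all tested genes were called lower and 4.17% higher, and whether a list differs from these shares was not tested. Of 40 tested further folding genes (isomerases, thioredoxin-like proteins, glucosidases and retrieval receptors), limma called 0 in either direction, with 6 lower at an unadjusted p under 0.05 and a median of -0.04. The smallest p-values belonged to Tmx2 (-0.28), Vkorc1 (-0.21), Selenof (-0.20) and Lman1 (-0.16), with adjusted p-values from 0.0556 to 0.101. Of 37 further degradation genes limma called 0, with 1 lower and 3 higher unadjusted and a median of 0.00; Get4 (0.23), Rhbdd1 (0.16), Aup1 (-0.17) and Rnf139 (0.14) had the smallest p-values. Among 16 further sensing genes limma called 1 lower and 1 higher, with a median of 0.05. The stress kinase gene Map3k5 (Ask1) fell (-0.49, adjusted p = 0.00268) and Mbtps1, the protease that cuts Atf6, rose (0.24, adjusted p = 0.0338). Ufl1 (0.18) and Tmbim6 (0.15) did not pass.

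Targets of Atf4, the factor downstream of Perk, included no call in the direction of the members. Of 28 tested, 2 rose and 0 fell in limma, with 5 higher and 2 lower unadjusted and a median of 0.04. Among all tested genes, 4.17% were called higher and 3.54% lower. Whether this list or the next differs from all tested genes was not tested. The risers were the cystine transporter Slc7a11 (0.86, adjusted p = 0.0372) and the glycine transporter Slc6a9 (0.41, adjusted p = 0.0447); Cth (0.42) and Gars (-0.24) did not pass. Of 44 genes of translocation, glycosylation and early transport, 2 fell and 0 rose (15 lower and 1 higher unadjusted, median -0.08): Srprb, of the signal recognition particle receptor (-0.21, adjusted p = 0.0314), and the cargo receptor Tmed10 (-0.24, adjusted p = 0.0463). Spcs1 (-0.21) and Ostc (-0.26) did not pass.

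Cytosolic and mitochondrial heat shock genes held calls in the same direction as the members. Of 28 tested, 10 fell and 0 rose in limma, 17 and 0 unadjusted, with a median of -0.20. Of all tested genes, 3.54% were called lower, and 10.8% were lower unadjusted. Hsph1 (-0.79, adjusted p = 9.3e-05), Chordc1 (-0.73, adjusted p = 0.00232), Cryab (-0.54, adjusted p = 0.00353) and Stip1 (-0.33, adjusted p = 0.00375) had the smallest p-values. Many genes of this list, though not all, answer to the heat shock factor Hsf1 rather than to the sensors of the endoplasmic reticulum. Whether their fall and that of the members have a common source was not tested.

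**Figure D4:**
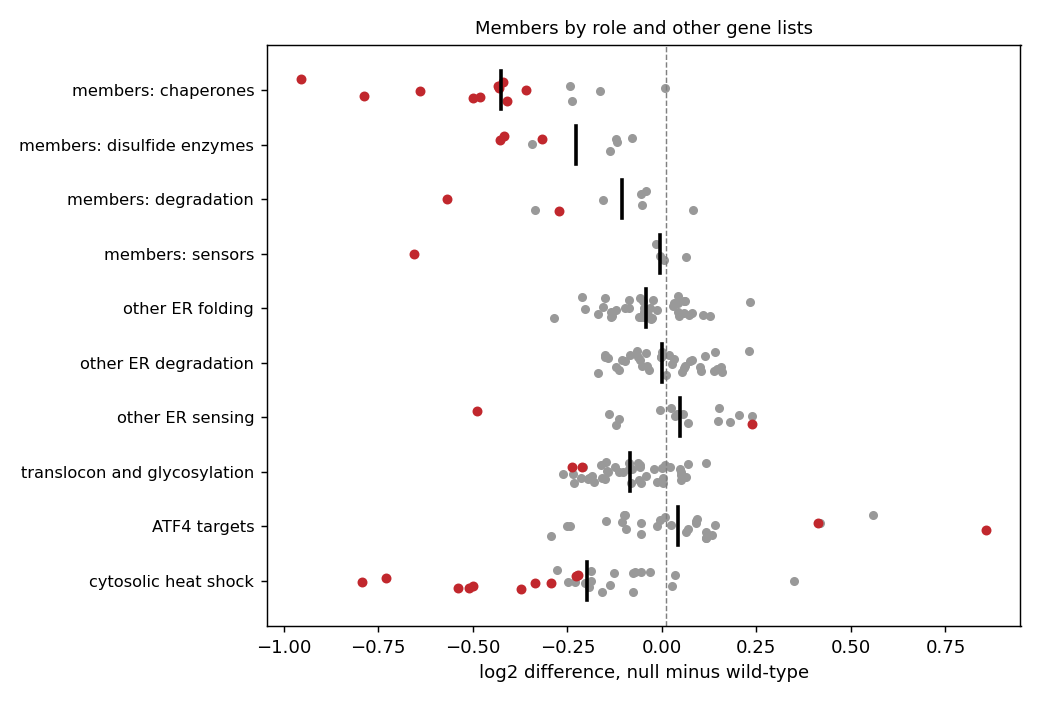
Log2 difference of null minus wild-type for each tested gene (points; red where the adjusted p was under 0.05), for the members by role and for 6 other lists, with the list median as a black bar and the median of all tested genes as a dashed line. The medians of the member roles are -0.43 (chaperones), -0.23 (disulfide enzymes), -0.11 (degradation) and -0.006 (sensors), with the dashed line at 0.01. The median of the cytosolic heat shock list is -0.20, and those of the other 5 lists lie between -0.08 and 0.05.

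Heterozygous against wild type showed no call: limma called 0 of 35 members, as it called 0% of all tested genes. At an unadjusted p under 0.05, 2 members were lower and 0 higher, where 1.73% of all tested genes were lower. These 2 are Dnajb9 (log2 difference -0.30, 95% confidence interval -0.54 to -0.07, adjusted p = 0.994) and Manf (-0.23, 95% confidence interval -0.46 to -0.0028). The members' median difference was -0.07, against 0.002 for all tested genes, and 29 of 35 were below 0, where 48.4% of all tested genes were. Groups did not separate for any member, where 0.396% of all tested genes were lower without overlap. For Hspa5 the interval of the heterozygous difference ran from -0.19 to 0.06, and for Calr from -0.19 to 0.09.

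For 15 of the 16 members called in null animals, the heterozygous mean lay between the null and wild-type means; the exception was Fkbp2. The same held for 263 of the 358 genes called lower in null animals (73.5%), and a call of null below wild type by itself favours a mean in between. Heterozygous array 5 was the lowest heterozygous array for 11 of the 16. Its values were 7.35 for Manf, 7.39 for Creld2, 8.91 for Herpud1 and 8.40 for Xbp1, against at least 7.69, 7.69, 9.26 and 8.75 in the other 4 heterozygous arrays. Over the 35 tested members, the median deviation from the wild-type mean was -0.15, -0.04, -0.04, 0.00 and -0.12 in heterozygous arrays 1 to 5.

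The second allele was addressed by null against heterozygous, with the same 5 null arrays. Of 35 members 8 fell and 0 rose; of all tested genes 7.82% were called, 3.54% lower and 4.28% higher. Unadjusted, 18 were lower and 0 higher, where 11.9% of all tested genes were lower, and 29 had a difference below 0, against 47.7% of all tested genes. The 8 are Hspa5 (-0.29, adjusted p = 0.00815), Hsp90b1 (-0.32, adjusted p = 0.0129), Calr (-0.37, adjusted p = 0.00473), Sdf2l1 (-0.80, adjusted p = 0.0191), Manf (-0.56, adjusted p = 0.00723), Fkbp2 (-0.53, adjusted p = 0.0103), Pdia3 (-0.30, adjusted p = 0.0206) and Pdia6 (-0.38, adjusted p = 0.00464). Groups did not overlap for 6 members, where 2.73% of all tested genes were lower without overlap. Xbp1 (-0.45, adjusted p = 0.0501), Creld2 (-0.42, adjusted p = 0.0551), Dnajb9 (-0.19, adjusted p = 0.292), Herpud1 (-0.38, adjusted p = 0.11) and Sel1l (-0.14, adjusted p = 0.23) did not pass here. Without null arrays 1 and 5 the count was 5, for which no share of all tested genes is given here.

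Several measures differed between the arrays together with the members. Clock genes were among them, though not all of them moved. Of 11 output genes, limma called Ciart (-0.97, adjusted p = 0.00719) and Dbp (-0.47, adjusted p = 0.032) lower and 0 higher. The output genes had a median of -0.06, and Nr1d1 (-0.32), Per2 (-0.06), Per1 (0.07) and Per3 (0.14) were among those not called. Of 4 genes of the opposite phase, Arntl (0.53, adjusted p = 0.0103), Cry1 (0.40, adjusted p = 0.0416) and Nfil3 (0.32, adjusted p = 0.0484) rose, and Clock (-0.02) was not called. The mean of the output genes minus that of the opposite genes was 0.192, 0.308, -0.116, 0.038 and 0.386 in null arrays, 0.574, 0.777, 0.783, 0.606 and 0.379 in heterozygous arrays, and 0.541, 0.859, 0.54, 0.827 and 0.486 in wild-type arrays. No null array reached a wild-type array, so this index and the genotype were nearly aligned. With the index as a covariate, limma called 0 members and 4 genes in all; 10 members were lower unadjusted, where 6.66% of all tested genes were, 30 of 35 differences were below 0 and the median was -0.18. Of the 16 members called without it, 5 had log2 differences smaller by over 1.5 times: -0.37 (SE 0.250) for Sdf2l1, -0.31 for Creld2, -0.26 for Fkbp2, -0.34 for Herpud1 and -0.18 for Sel1l. The other 11 moved less, among them Hspa5 (-0.26, SE 0.0903), Manf (-0.59, SE 0.165) and Xbp1 (-0.62, SE 0.222), which then had the largest difference of the members in place of Sdf2l1. How far clock phase or sampling time accounts for the members' fall was not tested.

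**Figure D5:**
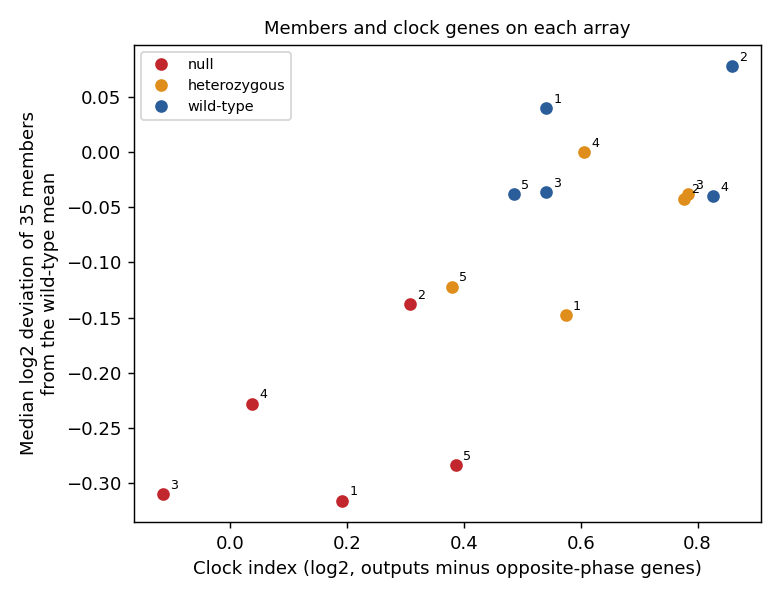
Median log2 deviation of the 35 tested members from their wild-type means (vertical axis) against the clock index, the mean log2 level of 11 clock output genes minus that of 4 genes of the opposite phase (horizontal axis), 1 point per array with its replicate number. Null arrays lie at index values of 0.386 or less and wild-type arrays at 0.486 or more, and null array 2 and heterozygous array 5 lie next to each other.

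The samples also carry a number in their descriptions whose meaning is not given, and null numbers were mostly higher than wild-type numbers. No number holds both a null and a wild-type animal. Null array 2 and heterozygous array 5 share a number, and between these 2 arrays the members' median difference was -0.05, against 0.02 for all tested genes. Heterozygous and wild-type animals share 2 numbers; the members' median differences within them were -0.10 and 0.04, against -0.035 and 0.045 for all tested genes. With the number as a linear covariate, 4 members were called lower, Hspa5, Hsp90b1, Pdia3 and Pdia6, where 1.1% of all tested genes were, and the members' median was -0.24. Differences shrank by over 1.5 times for 4 of the 16 called members, to -0.18 for Herpud1, -0.27 for Xbp1, -0.14 for Sel1l and -0.37 for Creld2.

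Markers of the epithelium and of other cells were compared for the same arrays, null against wild type. Of all tested genes, 3.54% were called lower and 4.17% higher in this comparison. Of 18 choroid plexus epithelial markers, 2 fell and 1 rose (median -0.08), and their summed linear signal ranged from 45270 to 48870 in null, 44950 to 49480 in heterozygous and 46520 to 50170 in wild-type arrays. Astrocyte markers had a median of 0.48 with 1 of 9 higher, and summed to 3527 to 4198 in null against 3271 to 3639 in wild-type arrays. Fibroblast markers (3 of 10 higher, 1 lower) summed to 4277 to 5330 in null against 3887 to 4909 in wild-type arrays, and endothelial markers (2 of 7 higher) to 609.6 to 864.2 against 528.6 to 778. Neither list of macrophage (6 tested) or oligodendrocyte markers (7 tested) had a call in limma, nor had 7 neuron markers, whose sum reached 1869 in heterozygous array 1. Ependymal markers (2 of 8 lower, 1 higher) summed to 1441 to 1625 in null against 1477 to 1608 in wild-type arrays, and none of 3 pericyte markers or the 1 red cell marker tested was called. Markers below the filter included Pecam1 of endothelium, Aif1 of macrophages and Rbfox3 of neurons. The part of these cell types in the members' fall was not tested.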

How the data were processed

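RNA of 15 choroid plexus samples, 250 ng each, was labelled with biotin and hybridised to 1 array per animal, per the labels' protocols. The deposited values are on a log2 scale, as read from their range of 1.57 to 13.89; the authors made them with Affymetrix Expression Console 1.1 and RMA (background correction, quantile normalization, probe summary), per the submitters' processing notes. For the deposited values, the sources used here name no genome build.

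Of 35556 probe sets, 21789 carried 1 gene symbol, 1621 several and 12146 none in the platform annotation, and 21698 of the first were matched to the GRCm38.p6 gene table for current names. The highest-mean probe set of each gene was kept, and genes above 5.31, the median of these values, in at least 5 arrays were tested. One linear model over 15 arrays (limma 3.58.1, R 4.3.3; lmFit, eBayes, no covariate) gave the 3 contrasts, with Benjamini-Hochberg adjustment over 10109 genes and calls under 0.05. Exact two-sided permutation tests used all 252 regroupings of 5 against 5 arrays and are not adjusted. The procedure was also run on simulated data, for which no outcome is given here. The number of animals limits the precision.

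The motif window was searched in RefSeq promoters. Members, lists and alternatives were chosen with earlier results of these data known. Named with values per array were the 4 members of each role with the smallest p, Hspa5 and the sensors; of other lists, up to 4 genes by p. The replicate numbers of the titles did not pair the samples: deviations of same-numbered arrays correlated between -0.254 and 0.238 across genes. No 2 of the 105 array pairs were alike (smallest SD of a difference 0.127). Both probe sets of Dnajc3 held the same values, and the second of Pdia4 differed by -0.43.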

Additional observations from a re-analysis of the deposited data

Results flagged for a closer look

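Of 111 groups of 5 arrays (37 members in 3 genotypes), 7 held an array that stood apart from the other 4 by Dixon's criterion at the 95% level, where chance flags about 1 group in 20. Null array 2 read 9.29 for Dnajb11, against 8.70 to 8.85 in the other null arrays. Null array 5 read 7.68 for Txndc5, against 7.92 to 7.95, and 6.30 for Edem1, against 6.59 to 6.65. Null array 1 read 6.07 for Ern1, against 5.79 to 5.84, and null array 3 read 6.98 for Eif2ak3, against 6.86 to 6.88. Heterozygous array 5 read 8.16 for Sdf2l1, against 8.43 to 8.54, and 6.35 for Edem2, against 6.16 to 6.21.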

How the results depend on the processing

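No member rose in any of the 29 alternatives, the count of heterozygous calls among the members was 0 in all of them, and for null against wild type 920 single-member values stayed on their side of the threshold, 72 lost the call and 17 gained it. No called member changed sign, while 27 values of 8 uncalled members did, each with a difference of 0.12 or less in size in the fit reported (Atf6, Creb3l2, Derl1, Edem1, Edem2, Eif2ak3, Erp44 and Sil1). The 16 members called lower became 4 with the description number as a covariate, 9 with Xist as a covariate, 9 without both null arrays with Xist signal and 0 with the clock index as a covariate, where the members' median was -0.1753; leaving out 1 array gave 11 to 18 calls and medians of -0.3095 to -0.2185. The replicate number as a block (replicate block), which the arrays' deviations do not bear out as a pairing, gave 15 calls with a median of -0.27, 9 against heterozygous animals and 0 for heterozygous against wild type, and, over all genes, 520, against 780 without it. Against heterozygous animals, the 8 calls became 14 with a stricter filter, 13 with array weights, 1 with the description number, 5 with Xist as a covariate, 5 without both Xist arrays and 0 with the clock index, and 6 to 12 when 1 array was left out. No share of all tested genes is given for these counts against heterozygous animals. All genes called between null and wild type, 780, became 1315 with array weights, 259 with the description number, 316 with Xist, 401 without both Xist arrays, 4 with the clock index and 458 with only the 2 genotypes fitted, and 392 to 1420 when 1 array was left out (1420 without null array 2; 401, 440, 392, 438 and 449 without null array 1 or 3 or wild-type array 1, 2 or 3). Median centring gave 378 higher and 510 lower genes, against 422 and 358. The stricter filter tests fewer genes; the cause of the other changes was not tested. Signal near the background limits Pdia5 and Derl3.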
